A study of Drosophila melanogaster with 3 samples.

Results

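The genes described here encode 8 secreted or surface-bound metalloproteases of Drosophila melanogaster, enzymes that hold a zinc ion at the active site and cut proteins or peptides outside the cell. They were chosen by name as Ance, Acer, Mmp1, Mmp2, Nep1, Nep2, Nep3 and Nep4, and all 8 had a row among the 15682 genes listed. RNA was sequenced from the skeletal muscle of male flies aged 10 days. The flies carried RNA interference (RNAi) against Ptx1, the fly member of the Pitx family of homeodomain transcription factors. The sample titles name the driver MhcGal4, in which the promoter of the muscle myosin heavy chain gene directs expression to muscle. All of these titles write the RNAi as PtxRNAi2 and do not explain its last digit. The labels give this 1 group with 3 samples. Whether separate flies went into each sample is not given in the labels, so every spread and p-value measures differences between samples that may be technical.

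The title of the series links Pitx factors to the expression of proteases and to protein quality control during aging. Its design sets the RNAi libraries against control libraries of another series, which were not used here. No effect of the RNAi can therefore be read from any value below, and each level describes flies with the RNAi alone. Ptx1 itself stood at 15.7, 12.3 and 12.2 CPM (counts per 1000000 gene counts of the library) in libraries 1, 2 and 3, a level that without controls does not check the knockdown.

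Proteases outside the cell act on several kinds of substrate. Ance and Acer are relatives of mammalian angiotensin-converting enzyme and remove dipeptides from the end of short peptides. The neprilysins cut small peptides such as neuropeptides and hormones at the cell surface or, where the enzyme is secreted, in body fluid. The matrix metalloproteinases Mmp1 and Mmp2 are the only members of their class in the fly and cut the basement membrane, the sheet of collagen IV, laminin and perlecan that surrounds muscles, nerves and other organs.

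The libraries held between 35988267 and 52675322 gene counts, in which a count of 0 would allow up to 0.0834 CPM in the shallowest library. All 12 muscle markers were detected, meaning 1 CPM or more in every library, with summed levels of 18219 to 21226 CPM. Genes of other tissues were present as well: all 7 gut markers, all 8 neuron and glia markers, all 5 photoreceptor markers and 8 of 9 blood cell markers were detected. Of 4 fat body markers matched, 3 were detected. Among them Rfabg stood at 5231, 5970 and 5951 CPM in libraries 1, 2 and 3. Mhc, the muscle marker with the most counts, stood at 4200, 4901 and 4376 CPM. In bulk RNA, fewer cells of a type cannot be told apart from less RNA per cell. Library 1 stood apart in some of these lists. Its summed photoreceptor markers reached 195 CPM against 1437 and 968 CPM in libraries 2 and 3, its neuron and glia markers 813 against 1235 and 1066 CPM, and its gut markers 11624 against 9540 and 9907 CPM. In the edgeR test of spread described below, all 5 photoreceptor markers were called variable, against 2.05% of all genes tested. None of the 8 neuron and glia markers or the 7 gut markers was called. The 5 testis and accessory gland markers were not detected in any library, with summed levels of at most 1.58 CPM.

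All 8 metalloprotease genes were detected. Together they held 0.0773%, 0.0793% and 0.0786% of gene counts in libraries 1, 2 and 3, a mean of 0.0784 ± 0.000989% (SD, n = 3). Their mean levels ran from 22.3 CPM for Nep1 to 229.6 CPM for Ance, with a median of 69.8 CPM, whereas the median of all 9579 detected genes was 29.6 CPM. A longer transcript gives more counts for the same number of molecules, and no correction for length was made. These figures and the order of genes in CPM therefore describe counts, not numbers of transcripts, and the comparisons that follow are between libraries.

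**Figure D1:**
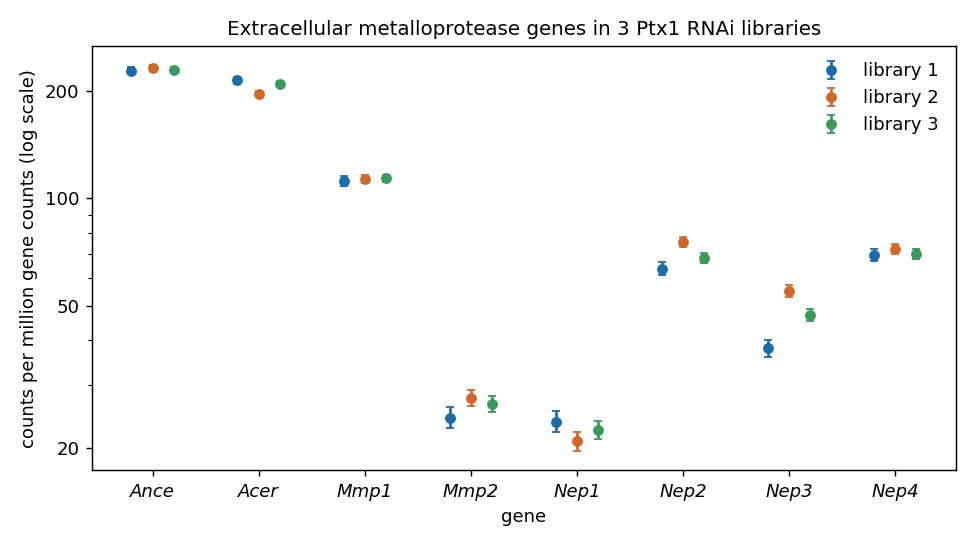
Level of each of the 8 genes in the 3 Ptx1 RNAi libraries, in CPM on a log axis, with 1 point per library and bars for the exact 95% Clopper-Pearson interval, which covers counting error only. Ance lies between 228 and 232 CPM in all libraries, while Nep3 runs from 38.0 to 55.0 CPM.

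Ance is the secreted fly enzyme closest in activity to angiotensin-converting enzyme. It was counted 8203, 11783 and 12055 times, which came to 228, 232 and 229 CPM. The mean was 229.6 ± 2.12 CPM (SD, n = 3). The highest library exceeded the lowest by a factor of 1.02, and the intervals of all libraries overlapped. The coefficient of variation of 0.922% was as small as the 0.982% that counting error alone would give.

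Acer, the other catalytically active relative, stood at 214, 196 and 209 CPM, with a mean of 206 ± 9.64 CPM (SD, n = 3). Library 2 was the lowest, at 0.913 times library 1 (95% counting interval 0.886 to 0.940), and libraries 1 and 3 overlapped. Its coefficient of variation of 4.67% exceeded the 1.04% of counting error. The ratio of Ance counts to Acer counts, in which sequencing depth cancels out, was 1.06, 1.19 and 1.09 in libraries 1, 2 and 3. It was thus highest in library 2, where Acer was lowest and Ance highest.

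The fly genome holds further relatives of Ance, whose proteins lack residues needed for catalysis. Of these 4 genes, 3 were detected. Ance-5 stood at 105, 100.1 and 107 CPM and Ance-3 at 51.0, 52.7 and 53.1 CPM. Ance-4, named after its values were seen, stood at 40.0, 39.3 and 40.4 CPM. The fourth gene, Ance-2, reached at most 0.111 CPM. The coefficients of variation of the 3 detected genes lay between 1.35% and 3.25%, below the median of 7.86% over all detected genes.

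Among the neprilysins the spread between libraries differed from gene to gene. Nep4, which in the fly has a membrane-bound form in muscle and a soluble form, stood at 69.3, 72.2 and 69.8 CPM, with a mean of 70.4 ± 1.59 CPM (SD, n = 3). The intervals of its libraries overlapped, and its coefficient of variation of 2.25% lay close to the 1.77% of counting error.

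Nep2, a secreted neprilysin that in the fly cuts tachykinin peptides, stood at 63.6, 75.7 and 68.3 CPM, with a mean of 69.2 ± 6.09 CPM (SD, n = 3). Library 1 was the lowest and library 2 the highest, and their intervals of 61.0 to 66.2 CPM and 73.3 to 78.1 CPM did not overlap. Library 2 held 1.19 times the level of library 1 (95% counting interval 1.13 to 1.25).

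Nep3 had the widest spread of the 8 genes. Its counts of 1368, 2795 and 2483 came to 38.0, 55.0 and 47.1 CPM. The mean was 46.7 ± 8.51 CPM (SD, n = 3). Library 1 was the lowest and library 2 the highest, and no interval of a library overlapped another. Library 2 held 1.45 times the level of library 1 (95% counting interval 1.36 to 1.55) and 1.17 times that of library 3 (1.11 to 1.23). The coefficient of variation of 18.2% was higher than that of 87.9% of detected genes, and counting error would have given 2.18%.

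Summed lists of several kinds were ordered between the libraries as Nep3 was, lowest in library 1 and highest in library 2. The muscle markers were among them, at 18219, 21226 and 19854 CPM, and so were the basement membrane genes, at 739, 907 and 805 CPM. The muscle markers did not share this order as a class. Of the 12, 6 were lowest and 5 highest in library 1, against 42.9% and 43.7% of all detected genes. Summed neuron and glia markers were 1.52 times as high in library 2 as in library 1. All 8 of them were lowest in library 1, against that 42.9% of all detected genes. Heart and nephrocyte markers were 1.46 times as high, and photoreceptor markers 7.38 times. Their part in the level of Nep3 was not tested. Relative to Nep2, the count of Nep3 was 0.598, 0.727 and 0.690 in libraries 1, 2 and 3, so Nep3 varied more than Nep2 did.

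Nep1 went the other way, at 23.7, 20.8 and 22.5 CPM, with a mean of 22.3 ± 1.42 CPM (SD, n = 3). Library 1 was the highest and library 2 the lowest, at 0.881 times library 1 (95% counting interval 0.804 to 0.965). The ratio of Nep4 to Nep2 counts fell between 0.955 and 1.09, and was highest in library 1, where Nep2 was lowest.

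**Figure D2:**
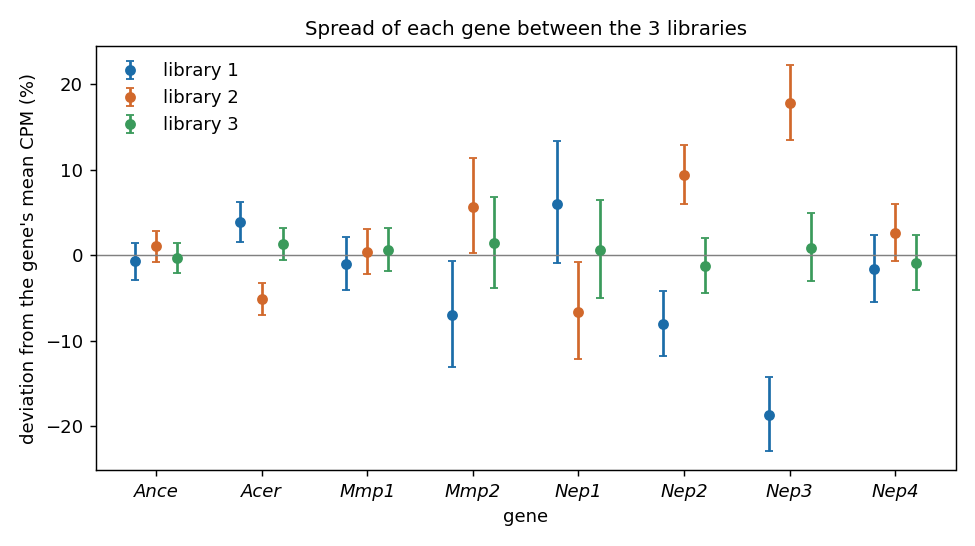
Deviation of each gene from its own mean CPM over the 3 libraries, in percent, with 1 point per library and bars for the exact 95% interval of counting error. Nep3 ranges from −18.6% in library 1 to 17.8% in library 2, Nep2 from −8.09% to 9.37%, and Ance from −0.720% to 1.04%.

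The neprilysin family of the fly is large. A further 24 genes were matched, named Nep5 to Nep7 and Nepl1 to Nepl21 in the RefSeq gene table, and 21 of them were detected. CG4721 (Nepl15) had the most counts, at 255, 254 and 258 CPM, followed by CG14526 (Nepl21) at 132, 160.1 and 154 CPM. The median level of the detected genes was 25.5 CPM and their median coefficient of variation 8.55%, against 29.6 CPM and 7.86% over all detected genes, with levels not corrected for length. CG15485 (Nepl7) had no count in any library. Several of these genes are close paralogs, so reads shared between them would make their separate counts uncertain.

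**Figure D3:**
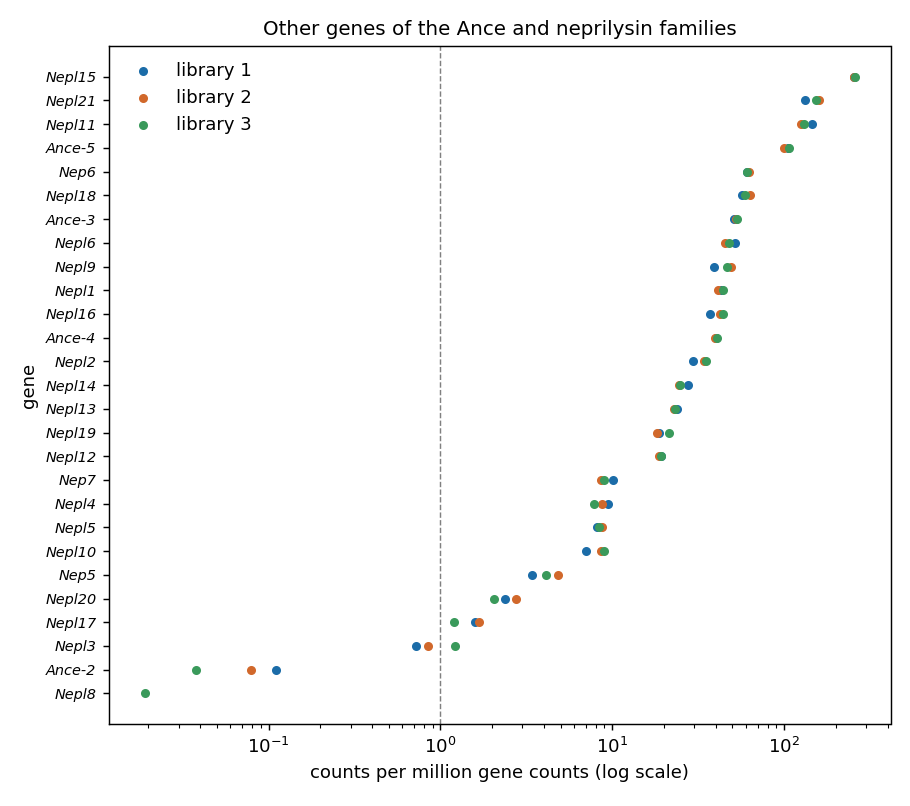
Levels of the other genes of the Ance and neprilysin families in the 3 libraries, in CPM on a log axis, with the dashed line at the detection limit of 1 CPM. Libraries in which a gene had no count are not drawn, which leaves out Nepl7, and most genes lie to the right of that line, 24 of 28 of them in all libraries.

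Mmp1, the largely secreted matrix metalloproteinase, had counts of 4027, 5765 and 5992, which came to 112, 113 and 114 CPM. The mean was 113 ± 1.01 CPM (SD, n = 3). All 3 intervals overlapped, and the coefficient of variation of 0.890% was below the 1.40% of counting error. In the RefSeq gene table the span of Mmp1 overlaps that of Pof, which stood at 15.9, 15.7 and 15.5 CPM. No source used here gives the strand setting of the counting, so reads from overlapping genes cannot be told apart with certainty. The same limit holds for Nep1, whose span overlaps that of Mipp2 at 2.97, 3.96 and 3.57 CPM. It holds for Mmp2 too, which overlaps an antisense RNA and a long noncoding RNA for which no values were used here. The genes that overlap Acer, lmgA and lmgB, had no count, which does not settle how reads in that overlap were assigned.

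Mmp2, which is anchored to the outer face of the cell membrane, stood at 24.3, 27.6 and 26.5 CPM, with a mean of 26.2 ± 1.69 CPM (SD, n = 3). Library 1 was the lowest, and library 2 held 1.14 times its level (95% counting interval 1.04 to 1.24). The ratio of Mmp1 to Mmp2 counts was 4.60, 4.11 and 4.29 in libraries 1, 2 and 3, with a mean of 4.33 ± 0.251 (SD, n = 3), and the counting intervals of these ratios overlapped.

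Timp, the secreted protein that inhibits matrix metalloproteinases, stood at 145, 136 and 147 CPM. The count of Mmp1 relative to Timp was 0.770, 0.834 and 0.773, with a mean of 0.792 ± 0.0357 (SD, n = 3). It was highest in library 2, where Timp was lowest. Reck, named for a mammalian membrane inhibitor of these enzymes, stood at 7.64, 9.88 and 9.23 CPM.

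The spread between libraries was tested for every gene with edgeR, by asking whether the counts fitted a common level given the variation that genes of like abundance show. The common dispersion, a single value estimated for all genes, corresponded to a coefficient of variation of 14.5% between libraries. The fit itself used a value that follows each gene's abundance. None of the 8 genes was called at an adjusted p below the threshold of 0.05, with 216 calls among 10522 genes tested, or 2.05%. None reached an unadjusted p below 0.05 either, which 5.39% of all genes tested did. Nep3 came nearest to a call, and the edgeR adjusted p was 0.99996 for each of the 8. These p-values do not show that the levels were equal, since the counting intervals of Acer, Mmp2, Nep2 and Nep3 did not overlap between libraries 1 and 2.

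**Figure D4:**
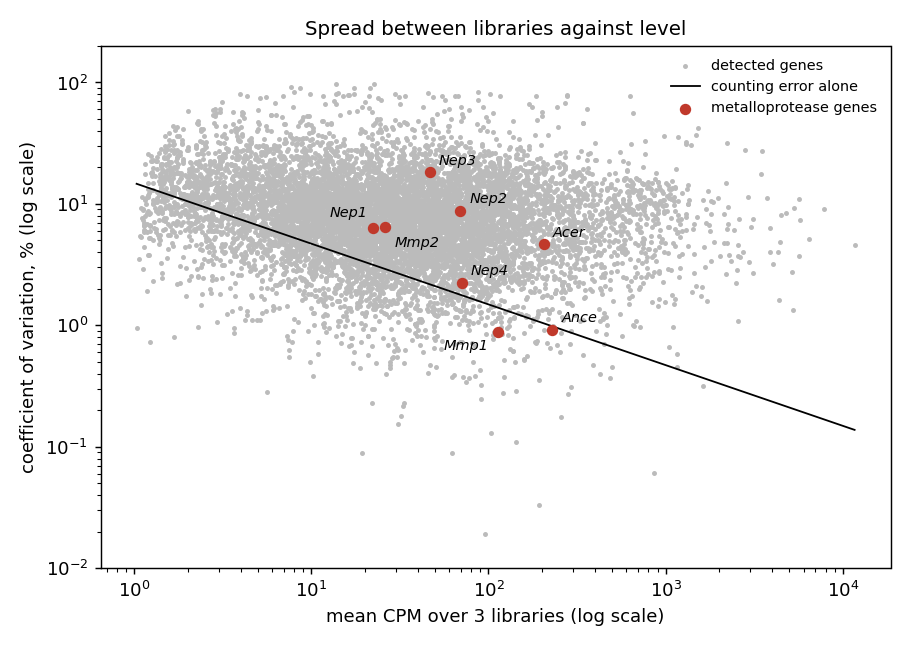
Coefficient of variation over the 3 libraries in percent against mean CPM, both on log axes, for the 9579 detected genes in grey and the 8 metalloprotease genes in red, with a black line for the spread that counting error alone would give. Ance and Mmp1 lie on or below the line at 0.922% and 0.890%, and Nep3 lies far above it at 18.2%.

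Library 1 was the lowest for 6 of the 8 genes and the highest for Acer and Nep1. Over all detected genes, 42.9% were lowest and 43.7% highest in library 1. With TMM scaling, which corrects library totals for a few dominant genes, library 1 was the lowest for 4 of the 8 and again the highest for 2, because Ance then stood at 229 and 227 CPM and Nep4 at 69.6 and 69.3 CPM in libraries 1 and 3. The gene nearest to Nep3 among detected genes, by Euclidean distance of log2(CPM + 0.5) over 3 libraries, was CG7956 at 38.6, 53.6 and 46.9 CPM. The nearest to Nep2 was RpII215, a subunit gene of RNA polymerase II, at 62.9, 75.3 and 67.3 CPM, and the nearest to Acer was atilla at 213, 198 and 206 CPM. Those nearest to Ance, Mmp1, Mmp2, Nep1 and Nep4 were B52, prel, CG4991, CG7275 and SCAR. Such likeness rests on the level and on 3 libraries only.

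Other metalloproteases of the cell surface and matrix were covered by lists of their own. In the list of ADAM and ADAMTS genes, which covers enzymes that shed membrane proteins or cut matrix and a related matrix protein, all 10 were detected, and 8 were lowest in library 1. The share lowest in library 1 over all detected genes was 42.9%. Ppn (papilin, the matrix protein) stood at 207, 251 and 228 CPM and mmd at 47.4, 73.4 and 62.1 CPM. Kul was the single gene of this list called variable, at 12.3, 32.3 and 22.7 CPM (edgeR adjusted p = 0.00147). The share called over all genes tested was 2.05%. The summed level of the list ran from 428 CPM in library 1 to 564 CPM in library 2. The astacins tok and tld, the fly relatives of the enzymes that activate growth factors of the BMP group, stood at 83.4, 101 and 92.6 CPM and at 5.03, 5.10 and 4.73 CPM. The third gene listed, CG11864, had no count in any library.

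The basement membrane, the substrate of the matrix metalloproteinases, was represented by 11 genes, all detected. Of these, 10 were lowest in library 1, against 42.9% of all detected genes. None was called variable, against 2.05% of all genes tested. The perlecan gene trol stood at 245, 354 and 298 CPM, and BM-40-SPARC, a collagen-binding protein gene, at 170.4, 148 and 144 CPM. The median difference of library 2 from library 1 over the 11 genes was 0.27 on the log2(CPM + 0.5) scale, against 0.04 over the 8 metalloproteases and −0.02 over all detected genes. All 6 genes of matrix adhesion were detected as well. The talin gene rhea stood at 492, 686 and 584 CPM and the integrin gene if at 243, 289.7 and 269.7 CPM, and none of the 6 was called.

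JNK signaling is known to induce Mmp1 in fly tissues. All 7 genes of that pathway were detected and none was called variable, against 2.05% of all genes tested. The Fos gene kay stood at 704, 729 and 730.2 CPM and the kinase gene bsk at 78.5, 73.5 and 80.9 CPM. Their median coefficient of variation was 5.83%, against 5.51% for the 8 metalloproteases, 0.890% for Mmp1 itself and 7.86% over all detected genes. A link between these genes and Mmp1 was not tested.

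Peptides are the substrates of neprilysins and of the Ance enzymes. Of 23 peptide hormone genes, 19 were detected. CCHa2 stood at 302, 279.9 and 309 CPM and Proct, the proctolin gene, at 120.3, 119.6 and 120.2 CPM. Of the 21 tested, Dsk and Crz were called variable, against 2.05% of all genes tested. Dsk, the drosulfakinin gene, stood at 1.06, 4.55 and 3.00 CPM (edgeR adjusted p = 0.00215), with 38 counts in library 1. Crz, the corazonin gene, stood at 0.333, 1.38 and 1.48 CPM (edgeR adjusted p = 0.0262). With 12 counts in library 1, Crz was not among the detected genes. Ilp2 and Ilp5, named after their values were seen, were removed for low counts and so were not tested. Ilp2 stood at 0.167, 2.30 and 1.48 CPM, with 6 counts in library 1. Ilp5 stood at 0.111, 0.591 and 0.494 CPM, with 4 counts in library 1. Tk, the tachykinin gene, named after its values were seen because Nep2 cuts its product, stood at 15.5, 18.3 and 17.1 CPM.

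Genes that process hormone precursors before the peptides are released were all detected. Of these 7, svr, a carboxypeptidase gene, stood at 165, 198 and 195 CPM and the amidating enzyme gene Phm at 124, 119 and 119 CPM, and none was called. All 9 receptor genes were detected too. GRHR, the adipokinetic hormone receptor under its older name, stood at 166, 148 and 159 CPM and Proc-R at 57.5, 60.5 and 63.6 CPM. InR, the insulin receptor gene, was the single receptor called variable, at 13.2, 29.5 and 23.4 CPM (edgeR adjusted p = 0.0245). Among all genes tested, 2.05% were called.

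**Figure D5:**
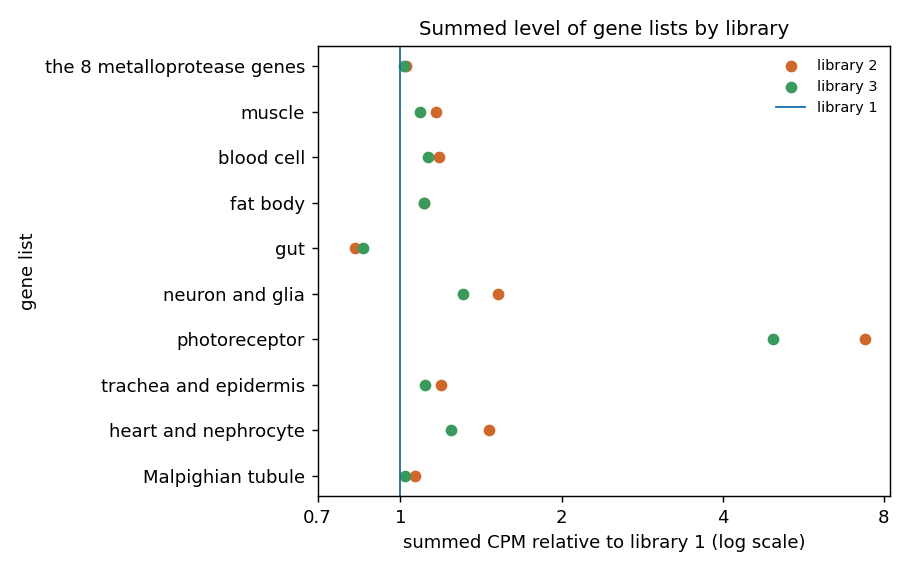
Summed CPM of the 8 metalloprotease genes and of each list of cell type markers in libraries 2 and 3 relative to library 1, on a log axis, with the line at 1 for library 1. The metalloprotease sum in library 2 was 1.03 times that in library 1, the neuron and glia sum 1.52 times, the photoreceptor sum 7.38 times and the gut sum 0.821 times.

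The sum over the 8 metalloproteases was 773, 793 and 786 CPM in libraries 1, 2 and 3. For comparison, the summed Malpighian tubule markers ran from 101 to 107 CPM. This sum is dominated by Ance and Acer, and it hides the wider spread of Nep3 and Nep2 described above. The remaining marker sums were 400 to 473 CPM for blood cells, 6323 to 6999 CPM for fat body, 141 to 167 CPM for trachea and epidermis, and 53.7 to 78.5 CPM for heart and nephrocytes. Among their defining genes, the blood cell genes crq and Hml stood at 125, 136 and 139 CPM and at 88.1, 139 and 119 CPM. The tissue from which each metalloprotease transcript came was not tested.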

How the data were processed

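RNA was isolated with an RNeasy Plus Mini kit and made into stranded TruSeq mRNA libraries read as pairs of 100 bases, per the labels' protocols. The deposited values are raw counts per gene symbol, as the authors' files show by whole numbers and by 5 closing summary rows of HTSeq. Those rows name no gene, held between 22.0% and 25.1% of what was listed and were left out. CASAVA 1.7, BWA, STAR and HTSeq are named, without roles, per the submitters' processing notes, which also name mm9, a mouse build, although the rows are fly genes. No coordinates are given for that reason, and the annotation and the strand setting are not given in the sources used here. Another 6 columns hold values of libraries from a different series and entered no step. Depth ranged from 35988267 to 52675322 gene counts.

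CPM was each count divided by its library's gene total, and detected means 1 CPM or more in every library. Intervals are exact Clopper-Pearson intervals at 95%, and the limit for a count of 0 was set at 3 counts, both for counting error alone. The spread between libraries was tested across all genes with edgeR 4.0.16 in R 4.3.3: low counts were removed with filterByExpr, libraries scaled by TMM, and a single level per gene fitted with trended dispersion. The deviance was compared with a chi-square distribution (2 degrees of freedom), and p-values were adjusted by Benjamini-Hochberg over all genes tested. The labels give 1 group, so there was no contrast for a quasi-likelihood or DESeq2 test; size factors from DESeq2 1.42.0 served as an alternative scaling. The procedure was also run on simulated data, whose outcome is not reported here and is not used as support for any result. The ratios and the order of genes had been planned per coding length, which was not used here, so ratios are of counts, and any order of genes is by CPM with no correction for length.

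The members and the 21 gene lists were chosen with earlier results of these data known. The lists had 170 entries, and 169 could be matched, 32 through other names in the RefSeq table of Release 6 plus ISO1 MT and 21 more after their letter case was corrected once the data had been seen. Named genes were all members, the 2 genes of each list with the highest mean CPM, those called variable, and the detected gene nearest to each member; of the marker lists, sums stand in for most of these.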

Additional observations from a re-analysis of the deposited data

How the results depend on the processing

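All 8 genes stayed detected with a limit of 0.5 or 5 CPM and without each library. A lower limit or a library left out cannot remove a detected gene, so only the limit of 5 CPM could fail. The lowest value of the 8 was 20.8 CPM, for Nep1 in library 2. None of the 8 was called variable with DESeq2 size factors, no filter on low counts, a common dispersion or any library left out. Nep3 had the smallest p of the 8 in each of these fits, between 0.134 and 0.238 in edgeR. Over all genes, 216 were called, against 210 with DESeq2 size factors, 262 with no filter and 244 with a common dispersion, and between 89 and 124 with 1 library left out (108 without library 1, 89 without library 2 and 124 without library 3), where fewer degrees of freedom remain. The share of counts held by the 8 genes rose from 0.0784% to 0.0837% with totals that omit the 10 highest genes and are therefore smaller, and 6 of 8 mean levels moved by more than 1 SD for the same reason. All 8 means with TMM scaling moved by less than 1 SD. So did all 39 means and ratios with a library left out. With 3 libraries, leaving 1 out always moves a mean by less than its SD, so that check could not fail. The number of genes lowest in library 1 was 6 with library totals and 4 with TMM scaling, an alternative chosen after seeing the data. The order of genes per coding length was not run. No paired analysis was possible because the labels give a single group.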
